A study of Rattus norvegicus with 6 samples.

Results

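Fgfr3 and Gpc1 were compared between rat cortical astrocytes grown as tissue-engineered rostral migratory streams (TE-RMSs) and astrocytes grown as planar cultures. They are 2 of the 23940 genes in the deposited count table, and both passed the minimum of 10 counts that left 16331 genes for testing. The rows were chosen by name, ENSRNOG00000016818 for Fgfr3 and ENSRNOG00000049437 for Gpc1, with their difference between the conditions already known. That difference is therefore described here without a test.

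Messenger RNA from total RNA extracts was sequenced as 6 libraries, 3 labelled TERMS and 3 labelled 2Dastro, and each of 3 runs gave 1 library of either condition. The runs are named by the months in their labels, July, September and October, and values below keep that order. All astrocytes came from the cortex of Sprague-Dawley pups of either sex at postnatal day 0 to 1, were used at passage 4 and were collected after 4 days in vitro. TE-RMS astrocytes were seeded into collagen-coated agarose microchannels, where they bundled, and planar astrocytes were plated on collagen in wells, both in the same medium. Each TE-RMS library came from TE-RMSs made on sequential fabrication days, selected for tight bundling, kept in RNAlater and pooled. The planar cultures were plated on the last of those days and extracted fresh, with no such selection in the methods. Culture format, fabrication day, pooling, selection and preservation therefore cannot be told apart. Depth was 70682593, 70478784 and 56483332 counts for planar astrocytes and 54601354, 77277336 and 64537115 counts for TE-RMS astrocytes. Per the methods each run repeated the whole preparation with astrocytes from other animals, so a run differs from another in animals and date alike. Run was a block in the fit, so the p-values for the condition do not measure the spread between runs. They rest on the variation left after run and condition are fitted, that is, on how the difference between conditions varied over the 3 runs.

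Fgfr3 encodes a receptor tyrosine kinase for fibroblast growth factors (FGFs) that is widely used as a marker of astrocytes and their precursors. Gpc1 encodes glypican 1, a proteoglycan tethered to the cell surface by a lipid anchor. FGFs bind their receptors together with heparan sulfate, the sulfated sugar chain that glypicans and syndecans carry, so that a proteoglycan such as glypican 1 can act as a coreceptor. Receptor activation then passes through adaptors and phosphatases to the MAP kinases.

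In mRatBN7.2, Fgfr3 is a protein-coding gene on chromosome 14 from 76987993 to 77003341 on the minus strand, and Gpc1 is a protein-coding gene on chromosome 9 from 93396234 to 93424047 on the plus strand. The counts cover whole genes, so exons and isoforms were not separated. In RefSeq on the newer assembly GRCr8 no other gene overlaps Fgfr3, whereas Gpc1 overlaps the microRNA gene Mir149, the long noncoding RNA LOC134480611 and, over 1560 bases, the protein-coding gene Ankmy1. The library kit does not mark strand, and reads from the overlaps could not be assigned to a strand.

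The promoters of the FGF receptor genes Fgfr3 and Fgfrl1 are shown because both genes were lower in TE-RMS astrocytes and both lie on chromosome 14. The sequences are from RefSeq on GRCr8, run 5′ to 3′ on the minus strand of the chromosome and end before the annotated gene begins. Fgfr3 covers chr14:81227216-81227459 and Fgfrl1 covers chr14:1166335-1166584. Capitals mark GGGCGG, the GC box, or its reverse complement. Of the members only Fgfr3 had an entry in the promoter table.
Fgfr3: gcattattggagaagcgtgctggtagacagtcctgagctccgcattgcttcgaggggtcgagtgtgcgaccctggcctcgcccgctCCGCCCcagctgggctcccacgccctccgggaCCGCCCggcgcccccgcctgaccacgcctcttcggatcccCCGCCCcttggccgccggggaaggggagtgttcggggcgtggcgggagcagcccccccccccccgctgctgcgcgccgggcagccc
Fgfrl1: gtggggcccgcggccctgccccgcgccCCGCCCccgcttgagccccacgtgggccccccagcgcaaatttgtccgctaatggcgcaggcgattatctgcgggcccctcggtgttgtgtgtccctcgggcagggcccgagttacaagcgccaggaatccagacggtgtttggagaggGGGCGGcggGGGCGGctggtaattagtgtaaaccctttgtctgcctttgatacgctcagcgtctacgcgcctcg

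The 244 bases before Fgfr3 were 75% G and C, and 96.5% of 33469 RefSeq promoter windows of that length had a lower share. GGGCGG occurred 3 times in Fgfr3, counting both strands, and 3 times in the 250 bases of Fgfrl1. At least 1 copy was present in 30% of the windows, and at least 3 copies in 7.06%. The TATA box letters TATAAA, searched on both strands, had 0 matches in both sequences and occurred in 12.8% of the windows. The AP-1 letters TGACTCA also had 0 matches and occurred in 3.96%. The TEAD letters GGAATG had 0 matches and occurred in 11.8%. No motif holds another, and a match describes the letters alone.

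Planar astrocytes held 7146, 5013 and 15511 counts of Fgfr3, and TE-RMS astrocytes 1173, 871 and 2294. After TMM normalization, which corrects for the total and the composition of each library, these were 105.6, 69.3 and 256.6 CPM (normalized counts scaled to a common library size) in planar and 20.7, 12.1 and 36.1 CPM in TE-RMS astrocytes. The highest TE-RMS library stayed below the lowest planar library, and in both conditions October was highest and September lowest. On average, planar astrocytes had 144 ± 99.3 CPM (SD, n = 3), whereas TE-RMS astrocytes had 23.0 ± 12.2 CPM (SD, n = 3). Within the runs, the log2 ratio of TE-RMS over planar was -2.35 in July, -2.51 in September and -2.83 in October, a mean of -2.56 ± 0.24 (SD, n = 3). The fitted log2 fold change was -2.57 with a standard error (SE) of 0.18, which corresponds to a 5.92-fold lower level.

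For Gpc1, planar astrocytes held 7024, 7728 and 11546 counts and TE-RMS astrocytes 1070, 1015 and 1757. The normalized levels were 103.8, 106.8 and 191.0 CPM in planar cultures and 18.9, 14.1 and 27.7 CPM in TE-RMS astrocytes. The groups did not overlap, and October was again the highest run in both conditions. Planar astrocytes averaged 134 ± 49.5 CPM (SD, n = 3), and TE-RMS astrocytes averaged 20.2 ± 6.88 CPM (SD, n = 3). The log2 ratios were -2.46 in July, -2.92 in September and -2.79 in October, a mean of -2.72 ± 0.24 (SD, n = 3). The fitted log2 fold change was -2.72 (SE 0.18), a 6.60-fold lower level.

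**Figure D1:**
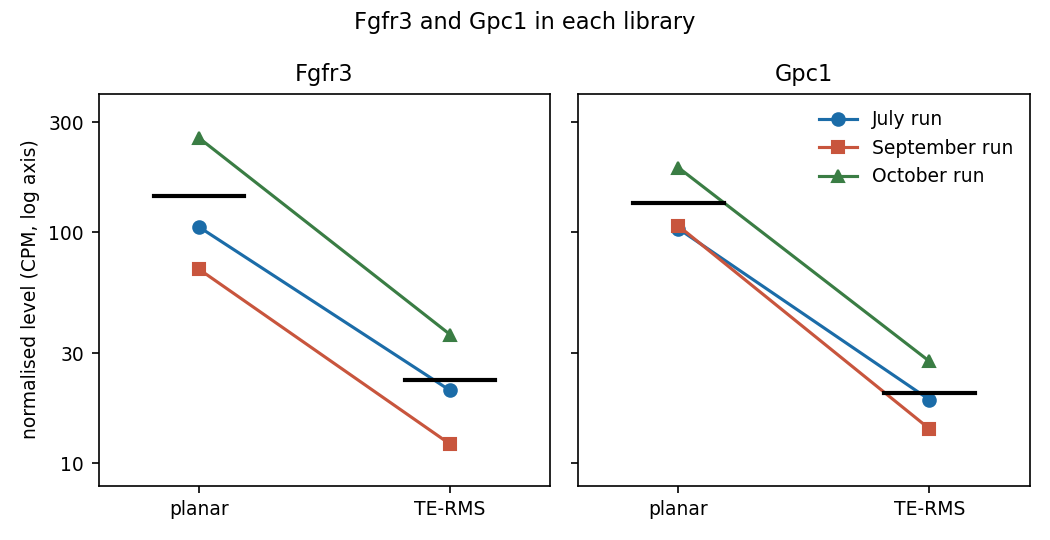
Normalised level of Fgfr3 and Gpc1 in each library (CPM, log axis), with a line joining the planar and TE-RMS library of a run and a black bar at the mean of 3 libraries. All 3 lines of each gene slope down, and the TE-RMS libraries (12.1 to 36.1 CPM for Fgfr3, 14.1 to 27.7 CPM for Gpc1) lie below all planar libraries.

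Of the 16331 tested genes, 16.1% had all TE-RMS libraries below all planar libraries, as Fgfr3 and Gpc1 had, and 9.28% were called lower by edgeR's quasi-likelihood test at an adjusted p under 0.05. A more negative fold change than that of Fgfr3 was fitted for 1500 tested genes, or 9.18%, and one more negative than that of Gpc1 for 1407, or 8.62%. Among the 1516 genes called lower the numbers were 148 and 121. The median log2 fold change of all tested genes was -0.12. The Fgfr3 and Gpc1 ratios were close to each other. The log2 ratio of Gpc1 minus that of Fgfr3 was -0.11 in July, -0.40 in September and 0.04 in October, a mean of -0.16 ± 0.23 (SD, n = 3), which was smaller than its spread. At the lowest counts of 871 and 1015 the counting error alone was 3.39% and 3.14%, small beside the differences between runs.

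**Figure D2:**
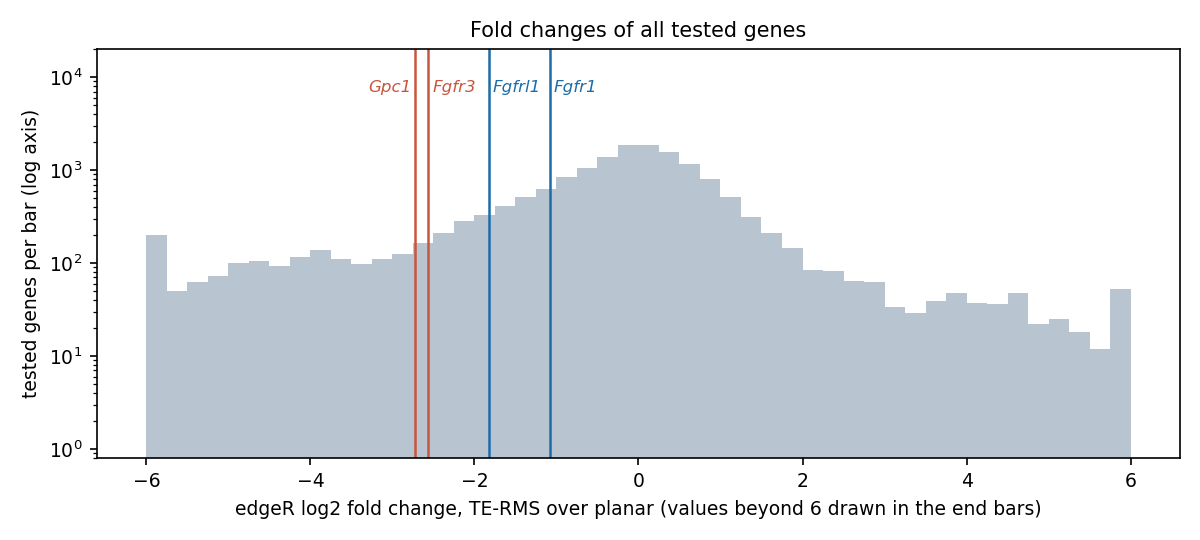
Histogram of the edgeR log2 fold changes (TE-RMS over planar) of all 16331 tested genes, on a log axis of genes per bar, with lines at Fgfr3, Gpc1 and the receptor genes Fgfrl1 and Fgfr1. Fgfr3 (-2.57) and Gpc1 (-2.72) lie next to each other in the lower tail, with Fgfrl1 (-1.83) and Fgfr1 (-1.08) nearer to 0.

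The choice of the genes did not use the differences between runs, and these were tested. When edgeR tested the runs jointly, with the condition in the model, Fgfr3 had an adjusted p of 0.00177, and 525 genes (3.21%) passed 0.05. Averaged over the conditions, Fgfr3 was 2.06-fold higher in October than in July and 3.32-fold higher than in September. In planar astrocytes the log2 difference of October over September was 1.89 and in TE-RMS astrocytes 1.57, so both libraries of the run moved together. The call rested on October. Without that run the adjusted p from edgeR's test was 0.141, with July 1.61-fold above September, and without July or September it was 5.57e-07 or 0.00368. For Gpc1 the adjusted p was 0.0523, with October 1.64-fold above July and 1.87-fold above September. Without July it was 0.00311, without September 0.120 and without October 0.761, and DESeq2 on all runs gave an adjusted p of 0.00563. The run test and the condition test share the estimate of residual variance, and among the 1503 genes with a name, which have small p-values for the condition, 11.8% passed the run test.

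Names were available only from the supplementary table that pairs identifiers with symbols, of which the part with the smallest p-values for this same contrast could be read. It gave 24 of the 150 genes of 6 lists on FGF signalling and heparan sulfate, so that almost any of them had to differ between the conditions. Without Fgfr3 and Gpc1, all 22 had an adjusted p under 0.05 by the edgeR quasi-likelihood test, 15 lower and 7 higher in TE-RMS astrocytes. Of all 1503 genes with a name, 752 were lower and 747 higher. Over all tested genes 9.28% were lower and 9.36% higher. All 22 had the same direction in each of the 3 runs, and in 19 the conditions did not overlap, against 29.3% of all tested genes. The median of the 22 log2 fold changes was -1.03. The other 126 genes of the lists were not analysed here by name.

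Among the ligand genes, 2 of 22 had a name. Fgf1, which encodes a secreted FGF that binds all FGF receptors, had 219, 928 and 934 counts in planar and 21, 219 and 227 in TE-RMS astrocytes. It was lower in each run, with a log2 change of -2.40 (SE 0.41, adjusted p = 0.00151 from edgeR's test), although the July planar library, at 3.24 CPM, was below the October TE-RMS library, at 3.58 CPM. Without the pairing of runs in the fit its adjusted p was 0.118. Fgf13 encodes an intracellular member of the family that does not act as a ligand of these receptors. It rose from 12.1 ± 3.30 to 29.3 ± 5.38 CPM (SD, n = 3 each), a log2 change of 1.30 (SE 0.25, adjusted p = 0.00290 from edgeR's test).

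Of the 7 receptor and Klotho coreceptor genes, 3 had a name, and all were lower in every run. Fgfr3, 1 of the 3, was chosen with its difference known, and 9.28% of all tested genes were called lower. Fgfr1, which encodes a receptor with an intracellular kinase like that of Fgfr3, had 67.1, 55.1 and 161 CPM in planar cultures and 43.9, 23.9 and 59.8 CPM in TE-RMS astrocytes. It fell by 1.08 on the log2 scale (SE 0.19, adjusted p = 0.00196 from edgeR's test), the groups overlapped, and without the pairing of runs in the fit its adjusted p was 0.126. Fgfrl1, a receptor that binds FGFs but lacks the kinase, had 63.1, 43.7 and 104 CPM in planar cultures and 21.0, 13.2 and 23.3 CPM in TE-RMS astrocytes. Its groups did not overlap, and it fell by 1.83 on the log2 scale (SE 0.19, adjusted p = 7.19e-05).

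Among the 3 receptor genes with a name, Fgfr3 stood lowest in its ratio between the conditions, the contrast on which it was chosen. The log2 ratio of Fgfr3 minus that of Fgfr1 was -1.74 in July, -1.31 in September and -1.40 in October, a mean difference of -1.48 ± 0.23 (SD, n = 3). Against Fgfrl1 the mean difference was -0.74 ± 0.06 (SD, n = 3). All 3 receptor genes had the same order of runs in planar and in TE-RMS astrocytes, with October highest and September lowest. In the joint test of runs, Fgfr1 had an adjusted p of 0.0107 and Fgfrl1 of 0.0602 from edgeR.

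Of 15 genes for heparan sulfate proteoglycans, 4 had a name, among them Gpc1, which was chosen with its difference known. All 4 were lower in TE-RMS astrocytes with no overlap of groups, against 16.1% of all tested genes. Having a name took a small p-value for this contrast. Beside Gpc1, these were the syndecans Sdc3 and Sdc4, which span the membrane, and Hspg2, which encodes the matrix proteoglycan perlecan. Sdc3 had 720, 614 and 1145 counts in planar and 38, 24 and 107 in TE-RMS astrocytes, a log2 change of -4.02 (SE 0.43, adjusted p = 7.75e-05 from edgeR's test). Sdc4, at 163 ± 21.6 CPM in planar cultures and 88.0 ± 16.1 CPM in TE-RMS astrocytes (SD, n = 3 each), fell by 0.89 on the log2 scale (SE 0.16, adjusted p = 0.00245). The log2 ratio of Gpc1 was below that of Sdc4 in each run, with differences of -1.72, -2.10 and -1.66. Hspg2 fell by 1.78 on the log2 scale (SE 0.39, adjusted p = 0.00685), with a weaker ratio in July (-0.72) than in September (-2.06) and October (-2.51), and without October its adjusted p was 0.0578.

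The genes for enzymes of heparan sulfate went both ways. Of 44 genes, 9 had a name, 5 of them lower and 4 higher, each in every run. The groups did not overlap in any of the 9, against 29.3% of all tested genes without overlap. These 9 genes form 1 list, and the roles given here are background, with no test of a split by role. Ndst1, whose product removes acetyl groups from the chain and adds sulfate in their place, had 4.86, 5.04 and 9.76 CPM in planar cultures and 0.90, 0.18 and 0.63 CPM in TE-RMS astrocytes, a log2 change of -3.70 (SE 0.65, adjusted p = 0.00192 from edgeR's test). Hs6st1, which adds sulfate at another position, fell by 1.76 on the log2 scale and Xylt2, which places the first sugar on the core protein, by 1.43. B3gat3, which completes the linker to the core protein, fell by 0.96, and Uxs1, which makes the UDP-xylose for that linker, by 0.90. The linker enzymes also serve chondroitin sulfate.

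The 4 higher genes were Hpse, Ids, Idua and Ugp2. Hpse encodes heparanase, which cleaves heparan sulfate chains, and had 177, 499 and 123 counts in planar and 780, 2736 and 1896 counts in TE-RMS astrocytes. Its log2 change was 2.89 (SE 0.34, adjusted p = 0.000139 from edgeR's test). The lysosomal enzymes Ids and Idua rose by 1.05 and 1.10 on the log2 scale. Ugp2, which makes UDP-glucose, a precursor of the UDP-xylose made by Uxs1 that also feeds many other pathways, rose by 1.03.

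**Figure D3:**
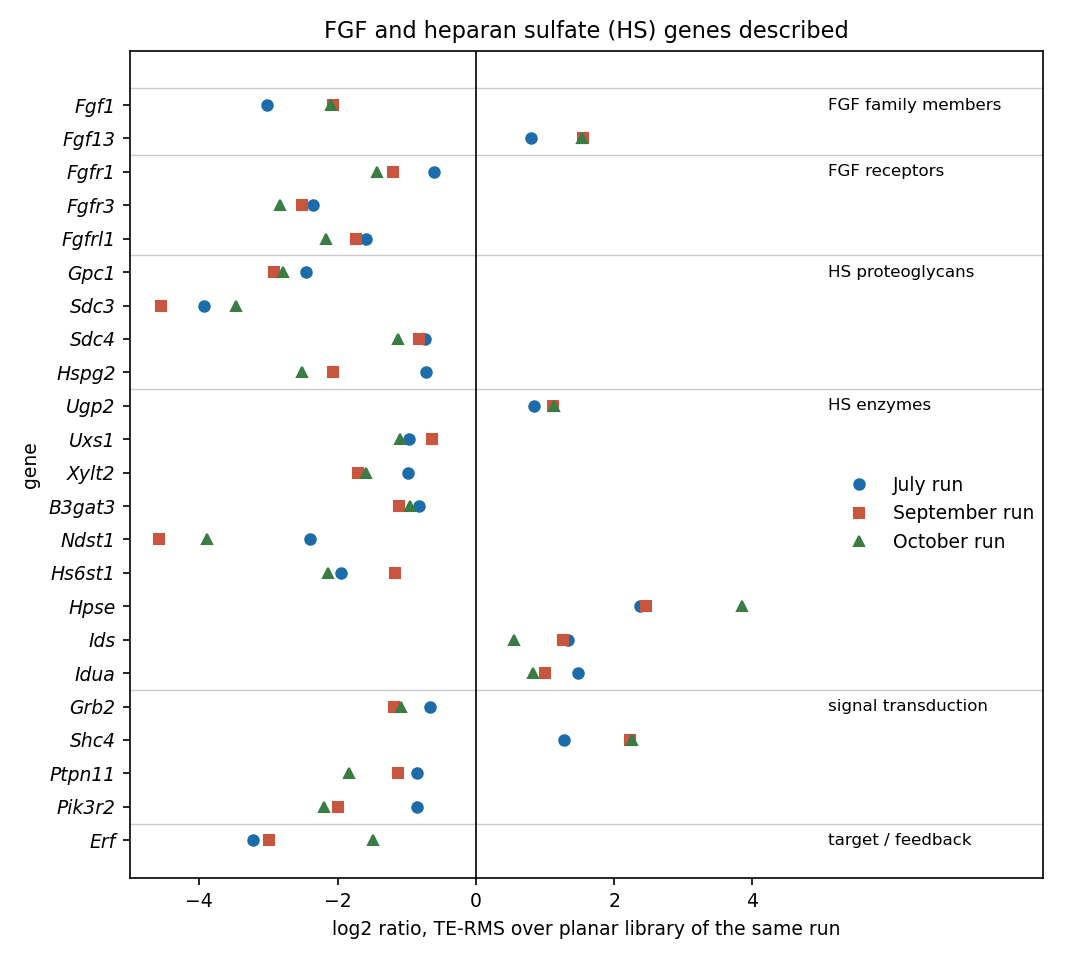
Log2 ratio of the TE-RMS over the planar library of each run for the FGF and heparan sulfate genes described in the text, grouped by role, with a marker for each run and a line at 0. No gene has markers on both sides of 0, and the receptors and proteoglycans all lie to the left, whereas the enzymes of heparan sulfate lie on both sides.

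Downstream of the receptor, 5 of 38 genes had a name, 3 lower and 2 higher. Of all tested genes, 9.28% were called lower and 9.36% higher. Grb2, the adaptor that links receptors to Ras, fell by 0.98 on the log2 scale (SE 0.17, adjusted p = 0.00190 from edgeR's test). Ptpn11, the phosphatase SHP2, fell by 1.27, and Pik3r2, a regulatory subunit of phosphatidylinositol 3-kinase, by 1.69. Shc4, an adaptor of the Shc family, rose by 1.95 on the log2 scale, but its groups overlapped, and its adjusted p was 0.282 without September and 0.0779 without the pairing of runs. Of 24 feedback and target genes only Erf had a name. It encodes a transcriptional repressor of the ETS family, and it fell from 9.77 ± 2.13 to 1.70 ± 0.78 CPM (SD, n = 3 each), by 2.60 on the log2 scale (SE 0.47, adjusted p = 0.00234).

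The genes most like Fgfr3 and Gpc1 were sought among all tested genes by the Euclidean distance between log2 CPM profiles over the 6 libraries, each centred on its own mean. The 5 nearest genes with a name for Fgfr3 were Tmem132a, Gpc1, Plekhh3, Eln, which encodes elastin, and Cdh22, a cadherin, at distances of 0.62, 0.88, 0.91, 0.94 and 0.98. Gpc1 was the gene at rank 3 for Fgfr3 when genes without a name were counted. The median distance from Fgfr3 to all tested genes was 3.83, and to the genes called lower 2.45. Pearson's r between Fgfr3 and Gpc1 was 0.97 over the 6 libraries, which share runs and conditions.

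For Gpc1 the 5 nearest genes with a name were Gna11, which encodes a G protein subunit, the kinase gene Pim3, the transcription factor gene Nfix, Klhl21 and Smad6, an inhibitor of BMP signalling. Their distances ran from 0.63 to 0.73, and no unnamed gene lay between them. Fgfr3 was at rank 23 of all genes for Gpc1. The coefficient of variation over the 3 planar libraries was 69.1% for Fgfr3 and 37.0% for Gpc1.

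**Figure D4:**
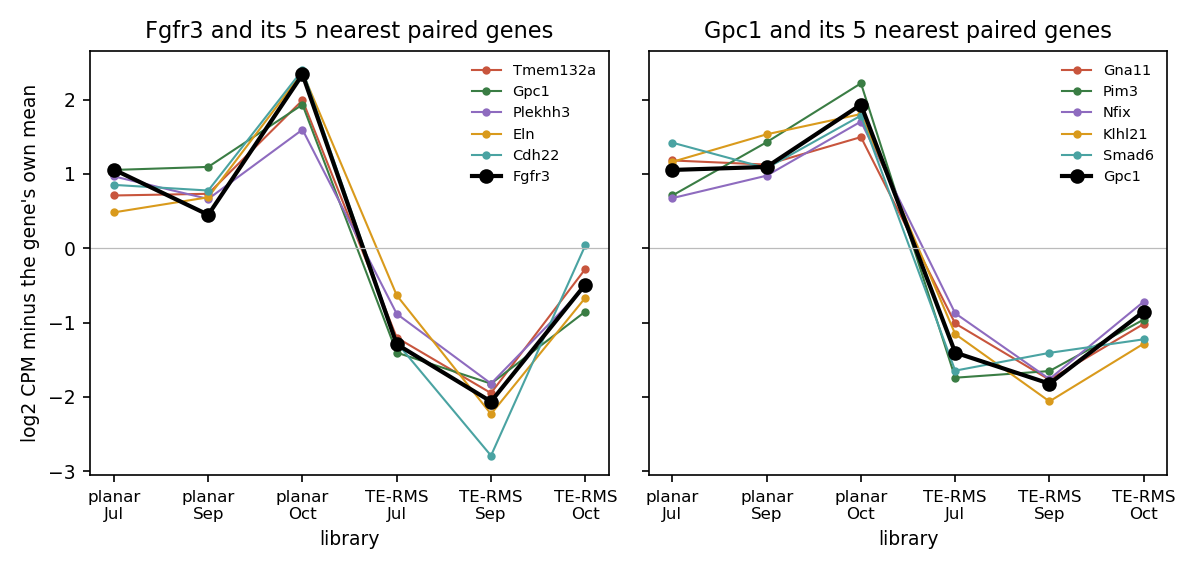
Log2 CPM of Fgfr3 (left) and Gpc1 (right) and of their 5 nearest genes with a paired name, each minus its own mean over the 6 libraries. Every line steps down from the planar to the TE-RMS libraries. That step follows from the choice of genes by likeness to Fgfr3 or Gpc1, whose difference was already known. In both panels every gene has its highest value in the October planar library.

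Fgfr3 is itself used as an astrocyte marker, and the other astrocyte markers with a name moved the opposite way. Only 4 of 13 had a name, which took a small p-value for this contrast, and all 4 were called higher, against 9.36% of all tested genes. Slc1a3 and Slc1a2, which encode the glutamate transporters GLAST and GLT-1, Gja1, which encodes connexin 43, and Apoe, a lipid carrier, all rose, by 1.56, 3.92, 1.49 and 1.80 on the log2 scale. Slc1a3 had 241, 253 and 275 CPM in planar cultures and 722, 674 and 882 CPM in TE-RMS astrocytes. Apoe had 1778, 1132 and 2201 CPM in planar cultures and 6761, 3593 and 7646 CPM in TE-RMS astrocytes, with October highest and September lowest in both, as in Fgfr3. In edgeR's joint test of runs the adjusted p was 0.0450 for Apoe, 0.221 for Slc1a2, 0.727 for Slc1a3 and 0.788 for Gja1. The summed level of the 4 was 2294, 1668 and 2700 CPM in planar cultures and 8034, 5094 and 9411 CPM in TE-RMS libraries, mostly from Apoe. Of 4 markers of neural precursors, 3 had a name. The transcription factor gene Sox2 and the intermediate filament gene Nes fell by 1.87 and 1.56, and Prom1 rose by 2.08, but without September the adjusted p of Prom1 from edgeR's test was 0.0875. In bulk RNA, fewer cells that express a gene and less RNA of it per cell cannot be told apart.

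Markers of other cells moved between the conditions as well. Of 8 fibroblast and mural cell genes, 5 had a name, and all 5 were called lower, against 9.28% of all tested genes, after the same selection by small p-values. They summed to 6766, 1054 and 2018 CPM in planar cultures and 572, 193 and 287 CPM in TE-RMS astrocytes. Tagln gave the largest part in planar astrocytes and in the July TE-RMS library, and Col1a2 in the September and October TE-RMS libraries. July, the highest planar run in that sum, was not the highest for Fgfr3 or Gpc1. The collagen gene Col1a1 fell by 1.69 on the log2 scale and Col1a2 fell as well, and in both October was the highest run in planar and TE-RMS astrocytes, as in Fgfr3. Col3a1 had July highest and October lowest in both conditions, with 212, 57.6 and 47.6 CPM in planar cultures and 51.0, 21.1 and 13.3 CPM in TE-RMS astrocytes. In planar cultures Acta2 and Tagln were also highest in July.

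Among oligodendrocyte lineage genes, Mal, a myelin protein gene, had 17.2, 4.53 and 1.51 CPM in planar cultures and 1.83, 1.54 and 0.03 CPM in TE-RMS libraries and fell by 3.10 on the log2 scale, and its groups overlapped. Cspg4, a gene of oligodendrocyte precursors and pericytes, fell by 3.41 without overlap of groups. Of 9 microglial genes, 2 had a name, with sums of 25.9, 38.8 and 27.2 CPM in planar cultures and 14.0, 91.0 and 12.9 CPM in TE-RMS libraries. Cd68 rose and Tmem119 fell, and the September TE-RMS library held most of the Cd68. Of 6 neuronal genes, Snap25 and Map2 had a name and summed to 12.7, 7.63 and 5.94 CPM in planar cultures and 34.9, 91.3 and 18.1 CPM in TE-RMS libraries, with 4374 counts of Snap25 in the September TE-RMS library. None of the 4 endothelial genes had a name. No marker described here was at 0 in any library, although some were near it. Snap25 had 1 and 3 counts in the July and October planar libraries. In the October TE-RMS library Mal had 2 counts, Acta2 had 3 and Cspg4 had 6. Without the pairing of runs, Cd68, Snap25, Mal and Col3a1 did not pass the test. The adjusted p from edgeR's test was 0.105 for Mal without July and 0.0699 for Snap25 without September. The part of these cells in the Fgfr3 and Gpc1 values was not tested.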

How the data were processed

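The authors used fastp for trimming, Salmon with the Ensembl release 111 transcriptome (mRatBN7.2) for quantification and tximeta for gene sums. What they deposited are estimated counts without normalization, in whole numbers. A gene needed 10 counts over the 6 libraries to enter. Scaling was by TMM, and the quasi-likelihood test of edgeR 4.0.16 (R 4.3.3) had run as a block, with Benjamini-Hochberg adjustment over the 16331 genes. SEs were derived from the fold change and F. Log2 CPM for ratios, profiles and distances used a prior count of 2.

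The run pairs the libraries by label and method. Deviations from the condition means correlated at 0.18 to 0.27 within runs and at -0.16 to -0.07 between runs.

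DESeq2 1.42.0, limma 3.58.1 (voom), other scalings and filters, no block and each run left out were alternatives. The tests were checked on simulated counts.

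The 2 genes and the lists were chosen with earlier results of these data known. Named genes are Fgfr3, Gpc1, every list gene with a paired symbol and the 5 paired genes nearest to each of the 2 genes. Symbols and mRatBN7.2 positions came from 1517 readable rows of the supplementary table, whose statistics, the authors' own fold changes and p-values, were not used. RefSeq (GRCr8) gave overlaps and promoters. Some list genes with a paired symbol are counted but not reported here by name.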

Additional observations from a re-analysis of the deposited data

How the results depend on the processing

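The log2 fold change of Fgfr3 ran from -2.67 to -2.40 and that of Gpc1 from -2.85 to -2.62 over 10 alternatives each. Their ratios within runs moved by less than the spread between runs under 4 other scalings or prior counts. The run test changed more. For Gpc1 it passed with DESeq2 (adjusted p = 0.00563) and with a filter of 1 count in total (edgeR, 0.0400), and leaving out a run gave 0.00311 to 0.761. For Fgfr3, leaving out a run gave 5.57e-07 to 0.141. Genes that differed between runs numbered 1281 with DESeq2 and 224 with at least 10 counts in 3 libraries. Without the replicate block, 1441 genes differed between the conditions, against 3044, and 13 lower and 6 higher of the 22 FGF and heparan sulfate genes were called. The 49 other genes of the lists kept their direction in all 490 comparisons with alternatives and lost the call in 18. The cause was not tested.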

Other observations

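Fgfr3 belongs to the receptor tyrosine kinases, and 10 of the 58 genes of that family had a name. Outside the FGF receptors these were 8 genes, of which 7 fell and 1 rose in TE-RMS astrocytes by edgeR's quasi-likelihood test, where 9.28% and 9.36% of all tested genes were called lower and higher. They were selected by small p-values for the same contrast, so the count is no independent evidence. Ptk7, a pseudokinase of planar cell polarity, had 21.8, 29.8 and 65.2 CPM in planar cultures and 5.19, 2.21 and 5.64 CPM in TE-RMS astrocytes (July, September, October), a log2 change of -3.13 (SE 0.33, adjusted p = 7.98e-05). Ror2, a receptor for Wnt5a, fell by 3.02 on the log2 scale, Aatk, a kinase gene, fell by 4.23, Erbb2 by 2.45, the ephrin receptor gene Ephb4 by 1.86, the collagen receptor gene Ddr1 by 1.81 and the insulin-like growth factor receptor gene Igf1r by 1.24.

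Ntrk2, which encodes the receptor TrkB for brain-derived neurotrophic factor, was the gene that rose. It had 98.2, 58.5 and 54.0 CPM in planar cultures and 253, 164 and 158 CPM in TE-RMS astrocytes, a log2 change of 1.47 (SE 0.16, adjusted p = 0.000100 from edgeR's test). Its highest run was July in both conditions, unlike Fgfr3. Without October the adjusted p was 0.0667 for Erbb2 and 0.0714 for Igf1r, and without the pairing of runs in the fit it was 0.197 for Erbb2 and 0.101 for Ror2.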
